A study of Mus musculus with 19 samples.

Results

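The calcium pumps of the sarcoplasmic reticulum and their small inhibitors were followed through 5 genes: the inhibitors Sln (sarcolipin), Mrln (myoregulin) and Pln (phospholamban), and the pumps Atp2a1 (SERCA1) and Atp2a2 (SERCA2). All array probe sets annotated to only 1 of these genes were taken. This gave 13 of the 45037 probe sets other than controls: 2 for Sln, 1 for Mrln, 3 for Pln, 1 for Atp2a1 and 6 for Atp2a2. These 5 genes were among 18193 genes with a probe set of their own. The genes were chosen with the HSALR against wild-type differences of these same arrays already known. Their differences between the groups are therefore given as a description, with standard errors and no p-value, and calls among them are only counted. RNA came from the extensor digitorum longus (EDL), a hind limb muscle made mostly of fast fibres, of FVB mice at 19 weeks of age. The 9 control samples were labelled wild type. The 10 HSALR samples were of transgenic line 20 b, which expresses human skeletal actin RNA with a long CTG repeat in skeletal muscle and models the RNA toxicity of myotonic dystrophy. Whether each sample is an animal of its own is not in the labels, so a p-value here covers only the sample-to-sample spread, which can be technical.

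Muscle relaxes when the SERCA pumps return calcium from the cytosol into the sarcoplasmic reticulum. Fast fibres use SERCA1, whereas slow fibres and the heart use SERCA2. Sarcolipin, myoregulin and phospholamban are short peptides of the reticulum membrane that bind these pumps and lower their activity. Sarcolipin is known from atrial and slow muscle, myoregulin from skeletal muscle, and phospholamban from heart and slow muscle, where its phosphorylation relieves the pump.

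RefSeq promoter windows on the GRCm38.p6 mouse assembly were found for 3 of the 5 genes. They are shown because they place the start of the 2 skeletal muscle genes, Mrln and Atp2a1, beside that of Pln. Each sequence covers the 250 bases before the transcription start site, from 5′ to 3′ on the gene's own strand. Capitals mark the E-box CANNTG, the letters bound by myogenic regulatory factors. The Mrln window is chr10:70204414-70204663 on the plus strand, the Pln window is chr10:53337436-53337685 on the plus strand, and the Atp2a1 window is chr7:126463074-126463323 on the minus strand.
Mrln: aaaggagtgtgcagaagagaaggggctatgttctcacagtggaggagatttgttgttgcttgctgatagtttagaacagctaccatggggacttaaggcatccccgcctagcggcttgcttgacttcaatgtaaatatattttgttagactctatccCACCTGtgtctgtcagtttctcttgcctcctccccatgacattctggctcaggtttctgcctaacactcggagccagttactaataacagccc
Pln: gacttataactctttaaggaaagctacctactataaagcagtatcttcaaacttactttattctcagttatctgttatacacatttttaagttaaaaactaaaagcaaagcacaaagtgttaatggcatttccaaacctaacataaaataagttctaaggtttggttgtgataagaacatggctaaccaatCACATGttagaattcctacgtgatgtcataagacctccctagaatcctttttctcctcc
Atp2a1: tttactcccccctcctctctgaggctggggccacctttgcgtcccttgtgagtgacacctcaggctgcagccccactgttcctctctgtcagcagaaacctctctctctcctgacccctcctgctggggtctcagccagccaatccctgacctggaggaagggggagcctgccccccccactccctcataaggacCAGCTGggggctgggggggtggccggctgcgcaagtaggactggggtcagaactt
On both strands, each window held 1 E-box. In Mrln it read CACCTG at positions -93 to -88 from the start site, in Pln CACATG at -59 to -54, and in Atp2a1 CAGCTG at -55 to -50. An E-box was present in 66.2% of the 32851 promoter windows of the same length, and the narrower form CAGCTG in 13.0%. The letters TATAAA were found in Pln only, at -219 to -214, and in 12.4% of all windows. The MEF2 motif and the CArG box, searched by name, matched none of the 3 windows and 2.92% and 1.47% of all windows.

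Array medians lay between 39.7 and 71.9 intensity units, and the log2 3'/5' ratio, a control of RNA quality, averaged -0.06 ± 0.05 (SD, n = 9) for wild type and -0.11 ± 0.04 (SD, n = 10) for HSALR. The labelled tissue was checked against marker lists. All 7 fast fibre genes were bright, with summed intensities of 88874 to 101470 in wild type and 81492 to 98690 in HSALR. They were read near the top of the range, as the highest signal of any probe set was 13979 to 17163, which can narrow their spread. The summed intensity of the 7 slow fibre genes varied far more, from 2182 to 27380 in wild type and from 2068 to 14309 in HSALR. Of 6 heart genes 2 passed the brightness filter, and the summed intensity of all 6 was 352 to 600 in wild type and 378 to 666 in HSALR. HSALR replicates 9 and 10 resembled each other most of all sample pairs (Spearman correlation 0.978, against 0.953 to 0.969 for the closest partner of each other sample). Their 8 macrophage markers summed to 13290 and 15228. The remaining HSALR samples gave sums of 2446 to 6432. Results that rest on these samples are given without them as well. In RNA from whole muscle, fewer cells of a type and less RNA per cell cannot be told apart.

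Across all tested probe sets, limma with Benjamini-Hochberg adjustment called 1140 of 22519 (5.06%) at a false discovery rate of 0.05, 645 higher (2.86%) and 495 lower (2.2%) in HSALR. After quantile normalization of the arrays 14.8% were called, 1457 higher and 1885 lower. Of the 13 member probe sets, 10 were bright enough to be tested, and 2 of these 10 were called, 1 of Sln (higher) and the 1 of Mrln (lower). Because the members were chosen on this contrast, nothing is read from that count. The median log2 difference was 0.02 over the 10 member probe sets and 0.04 over all tested probe sets.

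Of the 5 genes, Sln had the widest gap between the groups. Its bright probe set, 1420884_at, had a lowest, median and highest intensity of 90.1, 128 and 154 in the wild-type samples and of 415, 1286 and 2339 in the HSALR samples. The ranges did not overlap, with 10 of 10 HSALR samples above the highest wild-type sample, as was so for 0.36% of tested probe sets. In wild type the mean log2 value was 7.12 ± 0.25 (SD, n = 9), and in HSALR it was 10.16 ± 0.81 (SD, n = 10). The log2 difference was 3.05 ± 0.25 (SE), or 8.28-fold. Within each array, the probe set moved from the 66.3 percentile of all signals in the median wild-type sample to the 95.3 percentile in the median HSALR sample. The HSALR samples also differed widely among themselves, by 5.64-fold between the lowest and the highest. Replicates 4, 5, 6 and 7 read 753, 415, 627 and 739, and the other 6 read from 1272 in replicate 3 to 2339 in replicate 9. Without replicates 9 and 10 the log2 difference was 2.84 ± 0.23.

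The second Sln probe set, 1420883_at, did not pass the brightness filter. Its intensities ran from 3.44 to 32.0 in wild type and from 3.97 to 30.0 in HSALR, near the bottom of the arrays, so its log2 difference of -0.19 ± 0.18 gives no order of the groups. Sln is therefore known here from 1 probe set.

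Sln is also an atrial and an early muscle gene, so the markers of those tissues are given beside it. Of the 6 heart genes, 2 were bright enough to be tested. Myl4, an atrial myosin light chain, had intensities of 168 to 331 in wild type and 177 to 491 in HSALR, a log2 difference of 0.12 (limma adjusted p = 0.745). Myh6, a cardiac myosin heavy chain, had a log2 difference of -0.36 (limma adjusted p = 0.193). Nppa, the atrial natriuretic peptide, had intensities of 11.6 to 25.2 in wild type and 1.09 to 60.1 in HSALR, and Tnni3, cardiac troponin I, had 1.9 to 28.3 and 1.85 to 20.8. These and the remaining heart genes Myl7 and Ryr2 failed the brightness filter, and the groups overlapped in all 6. Of the 6 genes of embryonic and regenerating muscle, 3 were called higher by limma (Mybph, Myog and Ncam1) and 0 lower. Over all genes tested, 3.11% were called higher and 2.31% lower. The list was chosen with earlier results of these data known, so nothing is read from that count. The summed intensity of this list was 654 to 1334 in wild type and 2044 to 6521 in HSALR. Most of that gap came from Mybph alone, at 59.4 to 438 in wild type and 1110 to 5140 in HSALR. No gene of that list was at 0, and the embryonic myosin Myh3 differed by 0.08 on the log2 scale (limma adjusted p = 0.836). Myh8 differed by 0.61 (limma adjusted p = 0.342) and Chrna1 by -0.14 (limma adjusted p = 0.444), and neither was called. The part of these cells in the Sln difference was not tested.

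Mrln, the myoregulin of adult skeletal muscle, went the other way. Its probe set 1430036_at had a lowest, median and highest intensity of 1011, 1251 and 1567 in wild type and of 571, 732 and 1026 in HSALR. The groups overlapped by 1 sample: HSALR replicate 8, at 1026, lay above wild-type replicate 5, at 1011, and the other 9 HSALR samples lay below every wild-type sample. The share of all probe sets with as little overlap was not taken. The log2 difference was -0.71 ± 0.11, which is 1.63-fold lower in HSALR. It was -0.66 ± 0.12 without replicates 9 and 10 and -0.77 ± 0.11 after quantile normalization.

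Pln, the phospholamban of heart and slow muscle, showed overlapping groups in all 3 of its probe sets. Probe set 1450952_at had a lowest, median and highest intensity of 87.2, 130 and 163 in wild type and of 82.5, 108 and 166 in HSALR, a log2 difference of -0.19 ± 0.12. Probe set 1460332_at had 64.3, 77.2 and 138 in wild type and 44.1, 86.6 and 130 in HSALR, a log2 difference of 0.06 ± 0.14. The third, 1423359_at, was just under the brightness filter, with 30.4 to 71.8 in wild type and 38.4 to 72.1 in HSALR and a difference of -0.01 ± 0.13. In all 3, most HSALR samples read within the wild-type range.

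**Figure D1:**
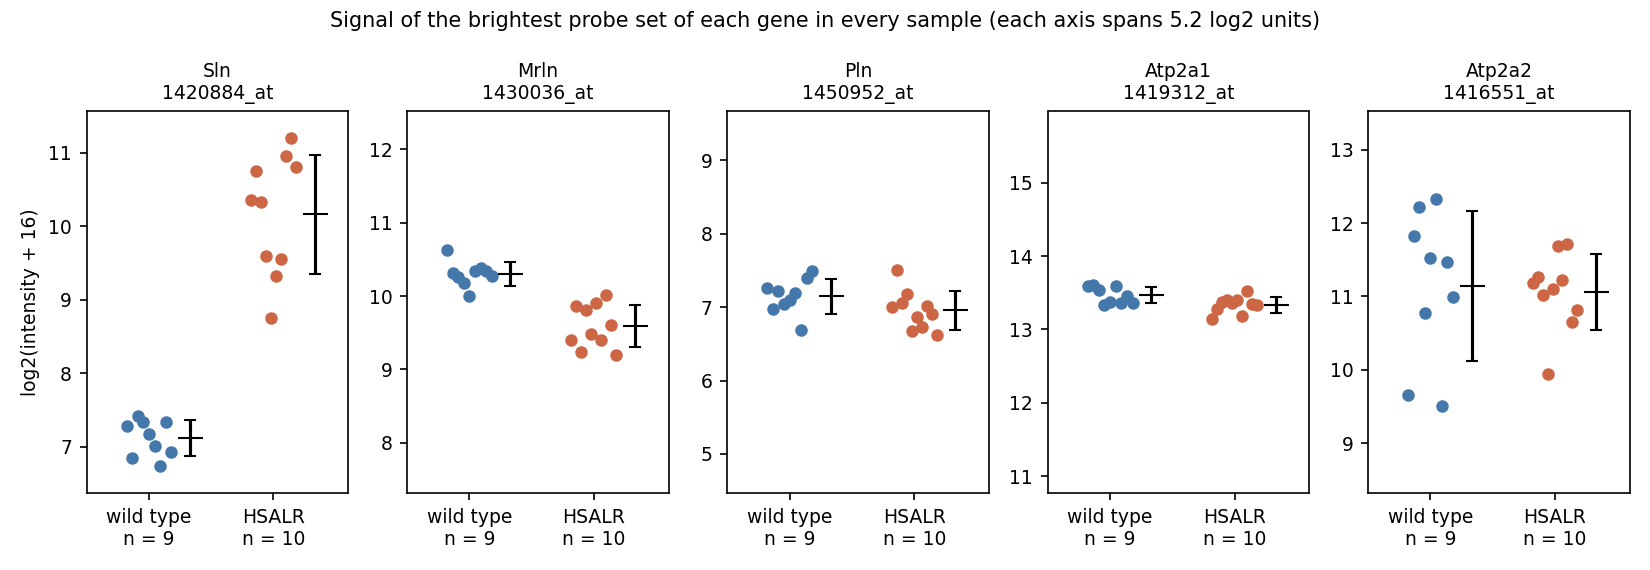
Signal, as log2(intensity + 16), of the brightest probe set of each of the 5 genes in every sample, for 9 wild-type and 10 HSALR samples, with the group mean and SD beside the points and the same axis length for each gene. Sln points of HSALR (intensities of 415 to 2339) all sit above those of wild type (90.1 to 154), Mrln points of HSALR sit lower except for 1 that overlaps, and the groups overlap for Pln, Atp2a1 and Atp2a2.

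Atp2a1, the pump of fast fibres, was bright on every array. Its probe set 1419312_at had a lowest, median and highest intensity of 10382, 11228 and 12364 in wild type and of 9003, 10458 and 11822 in HSALR. The groups overlapped, with 4 of 10 HSALR samples below all wild-type samples. The log2 difference was -0.13 ± 0.08, and -0.16 ± 0.05 after quantile normalization. The highest signal of any probe set on these arrays was only 13979 to 17163, so Atp2a1 was read close to the top of the range.

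Atp2a2, the pump of slow fibres, varied more between samples of the same group than between the groups. Its brightest probe set, 1416551_at, had a lowest, median and highest intensity of 711, 2826 and 5141 in wild type and of 966, 2235 and 3360 in HSALR. The HSALR range lay inside the wild-type range, and wild-type replicates 1 and 7, at 791 and 711, were the lowest of all samples. The log2 difference was -0.09 ± 0.32, with an SD within the group of 1.02 in wild type and 0.52 in HSALR. The sign of this value was not stable: it ran from -0.29 without wild-type replicate 7 to 0.06 without wild-type replicate 6. A second probe set, 1452363_a_at, had 381, 1029 and 2289 in wild type and 525, 948 and 1486 in HSALR, a log2 difference of -0.03 ± 0.28.

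The groups also overlapped at the remaining 4 Atp2a2 probe sets. Probe set 1427250_at had a lowest, median and highest intensity of 561, 679 and 768 in wild type and of 529, 786 and 2056 in HSALR. Here 7 HSALR samples exceeded the wild-type maximum and 2 fell short of the wild-type minimum. The 2 highest were replicates 9 and 10, at 2014 and 2056, and the next was replicate 8 at 1249. The log2 difference was 0.45 ± 0.21 with all samples, 0.17 ± 0.13 without replicates 9 and 10, and 0.74 ± 0.21 when the fit also held the 3'/5' ratio. These are the samples with the highest summed macrophage markers (13290 and 15228, with replicate 8 next at 6432) and the highest summed fibroblast markers (41774 and 44279, with the remaining 8 at 12613 to 27174), and the part of those cells in this value was not tested. Probe sets 1427251_at and 1437797_at differed by 0.10 ± 0.14 and 0.15 ± 0.18, with overlapping groups, and 1443551_at was under the brightness filter.

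**Figure D2:**
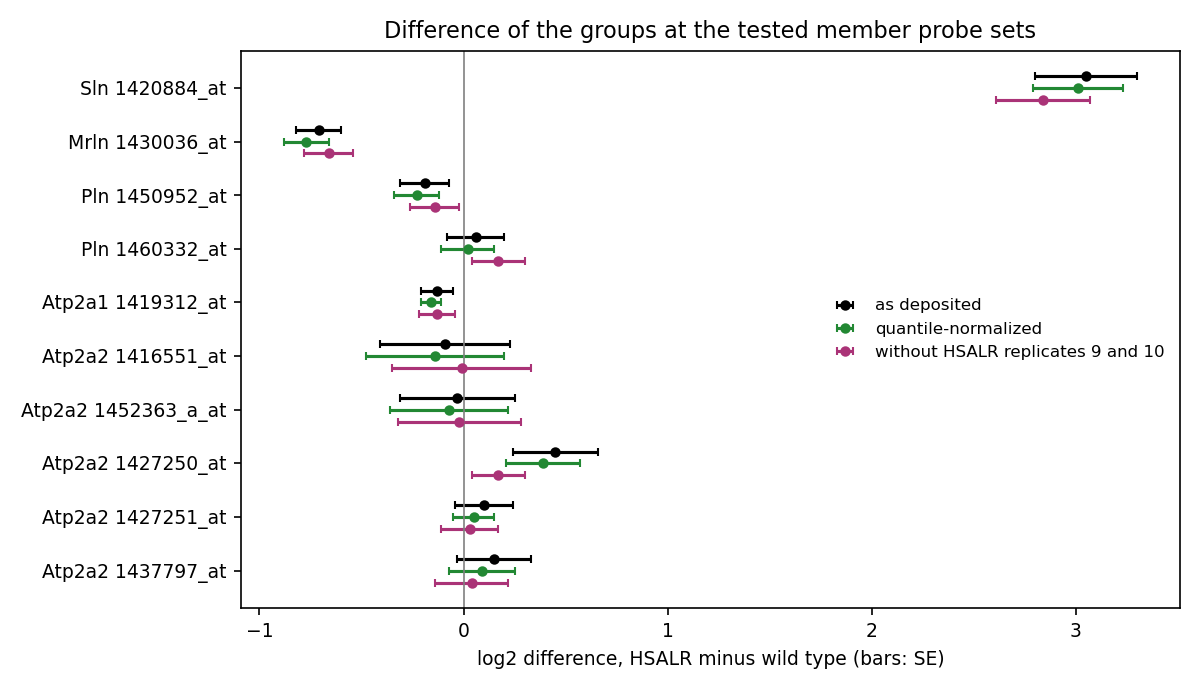
Log2 difference, HSALR minus wild type, of the 10 tested member probe sets, as deposited, after quantile normalization and without HSALR replicates 9 and 10, with bars of 1 standard error from limma. As deposited, Sln 1420884_at stands at 3.05 and Mrln 1430036_at at -0.71, the other 8 lie between -0.19 and 0.45, and Atp2a2 1427250_at drops to 0.17 without replicates 9 and 10.

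A difference taken within an array depends little on how the array was scaled. Each inhibitor was therefore also set against its pump sample by sample, as were Sln against Mrln and Atp2a2 against Atp2a1. The shift of each difference between the groups was read. Each mean shift follows by subtraction from the log2 differences given above, on which the members were chosen. It is a description and adds no separate evidence. How often ranges lie apart for other pairs of genes was not counted. Log2 Sln minus log2 Atp2a1 was 3.18 ± 0.27 (SE) higher in HSALR. It ran from -6.75 to -6.0 in wild type and from -4.61 to -2.14 in HSALR. Log2 Mrln minus log2 Atp2a1 was -3.17 ± 0.14 (SD, n = 9) for wild-type samples and -3.74 ± 0.25 (SD, n = 10) for HSALR samples, a shift of -0.57 ± 0.09 (SE). The highest HSALR sample, at -3.42, was just under the lowest wild-type sample, at -3.38, with Atp2a1 itself read near the top of the range. For Sln minus Mrln the shift was 3.76 ± 0.29. Pln minus Atp2a2 and Atp2a2 minus Atp2a1 shifted by -0.10 ± 0.37 and 0.05 ± 0.37, each far inside its spread.

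**Figure D3:**
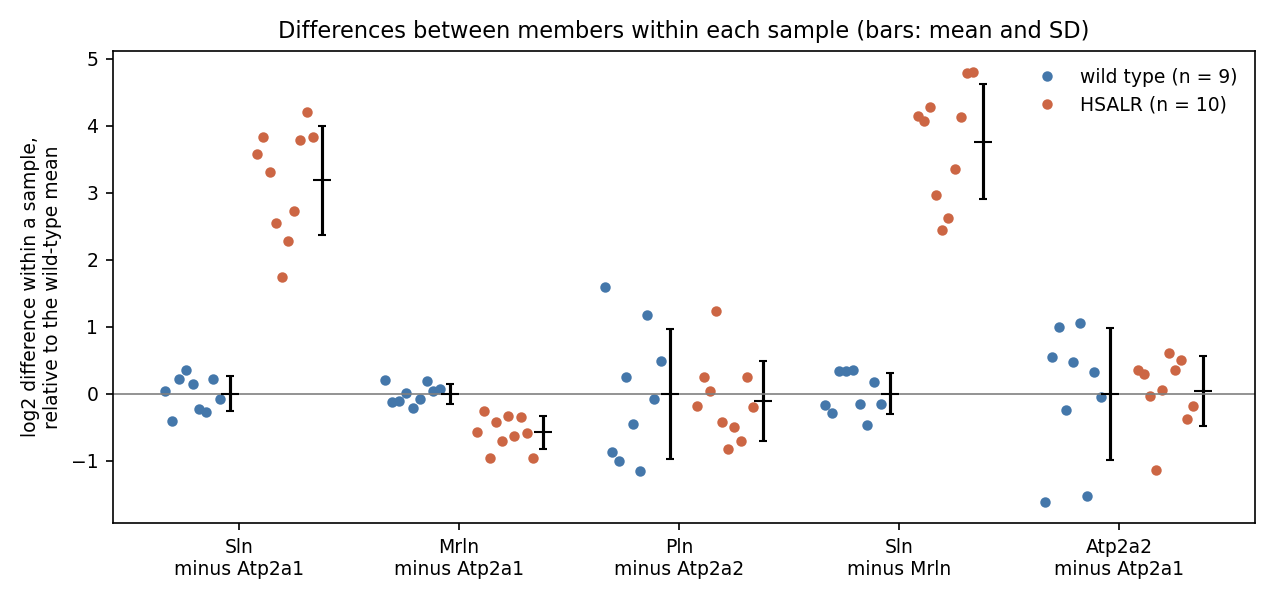
Log2 difference between the brightest probe sets of pairs of members within each sample, in log2 units, for 9 wild-type and 10 HSALR samples. The pairs are each inhibitor minus its pump, Sln minus Mrln, and Atp2a2 minus Atp2a1. Values are relative to the wild-type mean of that difference, with the group mean and SD beside the points. The HSALR mean of Sln minus Atp2a1 stands 3.18 above that of wild type and that of Mrln minus Atp2a1 lies below it (-0.57), and the groups overlap for Pln minus Atp2a2 and Atp2a2 minus Atp2a1.

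Relations within a group do not use the contrast between the groups. The slow fibre content of each sample was read as the mean log2 value of 7 slow fibre genes (Myh7, the slow myosin heavy chain, and its partners) after quantile normalization. The samples fell into separate clusters on this measure: wild-type replicates 1 and 7, at 8.15 and 8.18, lay apart from the others at 9.84 to 11.83, and HSALR replicates 4, 9 and 10, at 8.07, 8.01 and 8.57, lay apart from the others at 9.64 to 10.60. Relations with slow fibre content were therefore computed in the larger cluster of each group, 7 samples each. Relations between members followed the same rule, on 6 to 9 wild-type and all 10 HSALR samples. Among 20 relations, 2 passed the threshold after Benjamini-Hochberg adjustment, both of Atp2a2 (1416551_at) with slow fibre content. In wild type Pearson's r was 0.966 (exact permutation p = 0.00179, adjusted p = 0.0357) and Spearman's rho was 0.964 (exact permutation p = 0.00278, adjusted p = 0.0556). In HSALR r was 0.947 (exact permutation p = 0.00397, adjusted p = 0.0397) and rho was 0.929 (exact permutation p = 0.00675, adjusted p = 0.0675). Over the 8 HSALR samples left without replicates 4 and 9, the 2 farthest from the median slow fibre content, r was 0.979. Replicate 10 of the lower cluster was still among these, far below the rest in slow fibre content. With 7 samples the call was fragile. With the scaling as deposited the HSALR relation did not pass (r = 0.924, adjusted p = 0.0595, exact permutation test) and the wild-type one did. The call was lost in wild type without replicate 2, 3, 5 or 6, and in HSALR without any of these same wild-type replicates, through the adjustment, or without HSALR replicate 2, 3, 6, 7 or 8. The lowest r was 0.813, without HSALR replicate 3. The other 18 relations did not pass, among them Sln with slow fibre content (r = 0.0847 in wild type and -0.418 in HSALR) and Sln with Mrln (r = -0.507 over 9 wild-type samples, exact permutation adjusted p = 0.663, and r = -0.438 over 10 HSALR samples, adjusted p = 0.688 from 100000 random permutations).

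**Figure D4:**
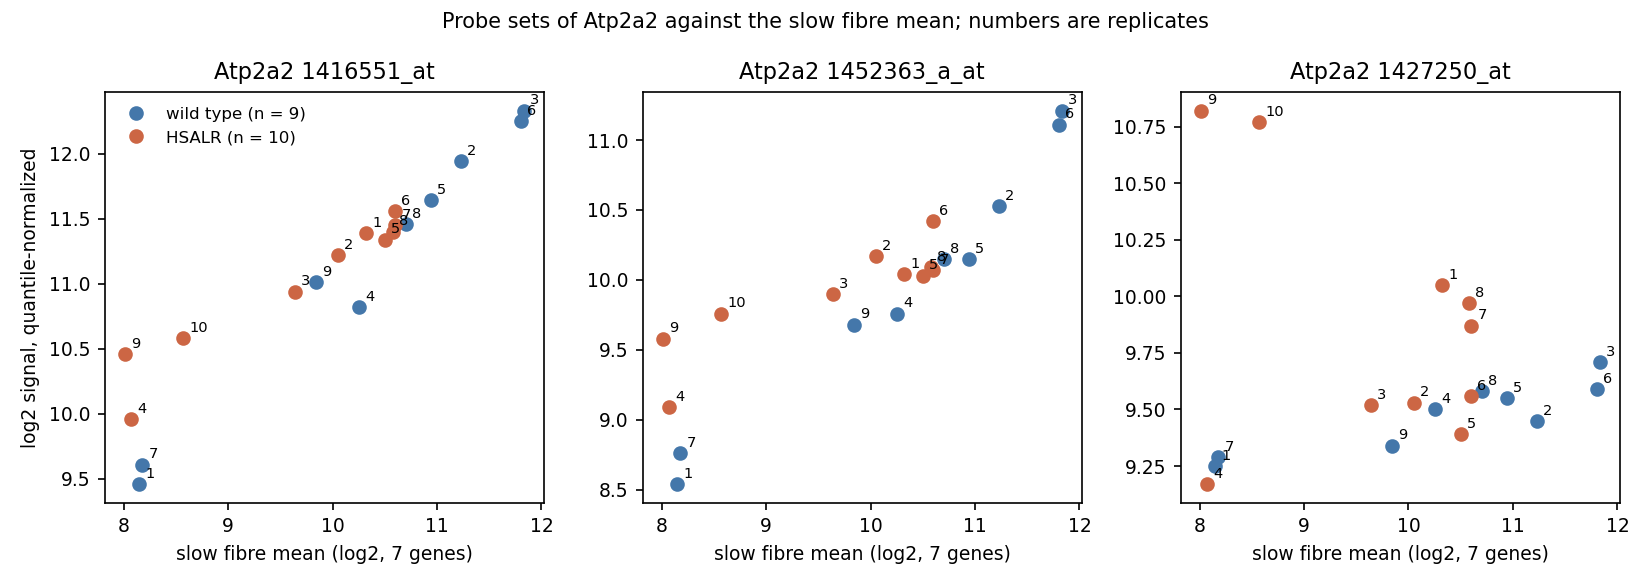
Log2 signal of the 3 brightest Atp2a2 probe sets against the mean log2 signal of 7 slow fibre genes, after quantile normalization, with 1 numbered point for each of 9 wild-type and 10 HSALR samples. For 1416551_at the points of each group rise with slow fibre content, and on that axis wild-type replicates 1 and 7 and HSALR replicates 4, 9 and 10 stand apart at the low end. For 1427250_at, HSALR replicates 9 and 10 are the highest points.

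Slow fibre content was then taken into the comparison, a step chosen after the data were seen. With it as a covariate, the log2 difference of Atp2a2 1416551_at was 0.26 ± 0.10 in place of -0.14 ± 0.34, and that of 1452363_a_at was 0.25 ± 0.13 in place of -0.07 ± 0.29, all after quantile normalization. The errors of these Atp2a2 probe sets shrank, and both values, smaller than their errors before, became positive. This fit held all 19 samples with the same slope in both groups, across the clusters kept apart above. How far the samples of the low clusters weigh in it was not tested. For Sln the difference was 2.99 ± 0.23 with the covariate. All 6 Atp2a2 probe sets were also set against slow fibre content, 12 relations in the 2 groups, again after the data were seen. In wild type, 1452363_a_at followed it (r = 0.974, adjusted p = 0.0107, exact permutation test, n = 7), and 1427250_at did not pass (r = 0.779, adjusted p = 0.11, exact permutation test). In HSALR, r was 0.522 (adjusted p = 0.352) and 0.348 (adjusted p = 0.507) for these probe sets by the same exact permutation test. These HSALR values changed with the samples of the lower cluster that were let in. Without replicates 9 and 10 only (n = 8), r was 0.928 and 0.672, and without replicates 4 and 9 only (n = 8), it was 0.746 and -0.655. Over all samples of a group, 1416551_at and 1427250_at had a correlation of 0.871 in wild type and of -0.164 in HSALR, as a description over samples that share their arrays.

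The genes whose pattern was most like each member were sought over all 19 samples, after the group means were subtracted and with quantile-normalized values. These correlations are descriptions. Each is among the most extreme over all genes compared, and the extremes that chance alone would give were not computed. All points of a gene share their arrays with those of every other gene. For Atp2a2 the closest were Tnni1, Myl2 and Tnnt1, with r of 0.980, 0.971 and 0.967, all parts of the slow fibre's contractile apparatus. For Sln they were Anxa4 (0.912), an annexin, Plekhg2 (0.837) and Tagln2 (0.836), and the most opposed was Rxrg (-0.855), a retinoid X receptor. For Mrln they were Kctd15 (0.875), Zfp758 (0.866) and Ndufa9 (0.846), a subunit of respiratory complex I, and the most opposed was Rarres1 (-0.904). Without HSALR replicates 9 and 10, r was 0.881 for Anxa4 and Sln, 0.805 for Kctd15 and Mrln, and 0.674 for Ndufa9 and Mrln. For Atp2a1 the closest genes were Fkbp8 (0.889), Anxa6 (0.884) and Gnas (0.825), and for Pln Foxb1 (0.861), Nt5c3 (0.816) and Rpp25l (0.807). With HSALR replicates 9 and 10 left out, these values were 0.889, 0.888 and 0.841 for Atp2a1. For Pln they were then 0.806, 0.689 and 0.729. The most opposed genes were Cyp2d13 for Atp2a1 (-0.845), Spon2 for Pln (-0.807) and Themis for Atp2a2 (-0.683). None of the 5 genes was among the closest of another.

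The rest of the calcium pathway was followed through 7 lists of 81 genes, of which 65 were tested by their brightest probe set. In HSALR 5 of them rose and 4 fell (9 of 65, or 13.8%), against 625 of 11533 genes (5.42%) in the same limma fit, where 3.11% rose and 2.31% fell. These lists were chosen with earlier results of these data known, so nothing is read from the gap between these shares. The adjusted p-values given below for single genes of the lists are descriptions for the same reason. The median log2 difference was 0.04 over the 65 genes and 0.05 over all genes tested. Of the 5 tested genes for other calcium pumps and exchangers and the 6 for store-operated entry, 0 passed in limma.

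Among pump partners and micropeptides, 1 of 5 tested genes rose: Canx, calnexin, a chaperone of the endoplasmic reticulum, by 0.40 ± 0.10 on the log2 scale (limma adjusted p = 0.0267). Among the genes for luminal and cytosolic calcium binding, 1 of 9 rose. This was S100a4, a calcium-binding protein of motile and connective tissue cells, at 1.11 ± 0.25 (limma adjusted p = 0.0107). It was 0.81 higher without replicates 9 and 10 (limma adjusted p = 0.0163), the samples with the highest summed macrophage and fibroblast markers, whose part was not tested.

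In the list for the release unit and triad, Cacng1, a subunit of the voltage sensor, rose and Jph2, which ties the reticulum to the surface membrane, fell, and the other 15 of 17 tested genes did not pass. Of 8 genes for mitochondrial uptake, 1 rose: Micu2, a regulator of the mitochondrial calcium uniporter, by 0.41 ± 0.11 (limma adjusted p = 0.0373). Of the kinases and phosphatases, 4 of 15 passed the threshold. Camk2d, a calcium-dependent kinase that can phosphorylate phospholamban, was higher in HSALR. Its relative Camk2a, the calcineurin catalytic subunit Ppp3cb and the phosphatase inhibitor Ppp1r1a were lower. Ppp3cb fell by 0.37 ± 0.10 (limma adjusted p = 0.0294). Ppp1r1a lay below all wild-type samples in 10 of 10 HSALR samples, as did 0.289% of all tested probe sets.

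Without HSALR replicates 9 and 10, where 3.93% of all genes passed, 4 of the 65 calcium genes did (S100a4, Cacng1, Camk2d and Ppp1r1a), and Canx, Jph2, Micu2, Camk2a and Ppp3cb did not, with limma adjusted p of 0.0992, 0.0972, 0.128, 0.0829 and 0.0778. All 5 kept their direction. With 1 sample left out at a time, the call was lost in 14 of 19 runs for Micu2, 12 for Camk2a and 9 for Jph2. It was lost in 6 for Canx and 5 for Ppp3cb, and in 0 for S100a4, Cacng1, Camk2d and Ppp1r1a. The number of called calcium genes was 4 without HSALR replicate 9 alone. It was 5 without wild-type replicate 2, 6, 7 or 8 or HSALR replicate 3 or 10. After quantile normalization, where 15.5% of all genes passed, it was 18, with 6 higher and 12 lower.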

How the data were processed

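RNA from 9 wild-type and 10 HSALR EDL samples was labelled with biotin and hybridised to 1-colour Affymetrix arrays, per the labels' protocols. The authors deposited 1 linear signal intensity per probe set and array, and the submitters' processing notes name GCOS 1.4. How signals were summarised and scaled is not given in the sources used here. The arrays kept their deposited scaling, and the number of arrays limits the precision.

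Intensities were used as log2(value + 16), so fold changes are on that scale and understate those of dim genes. Apart from 64 control probe sets, those with a mean log2 value of at least 6.09, the median, were tested (22519). Of the 45037 probe sets, 34945 had 1 gene symbol, 932 several and 9160 are unnamed here. For 34741 the symbol came from the current RefSeq table through the Entrez identifier. The groups were compared by lmFit and eBayes of limma 3.58.1 (R 4.3.3), 2-sided, with Benjamini-Hochberg adjustment over all tested probe sets at 0.05. SE values of tested member probe sets come from this fit, or from the limma fit of the setting named. Those of member probe sets under the brightness filter come from the fit with no filter. For differences within samples, the SE comes from the SDs of the groups, without limma.

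The members, the gene lists and the tests were chosen with earlier results of these data known. Named genes were every member probe set, up to 4 called genes per calcium list, the 3 genes most like each member and the 1 most opposed, and Myh7, with marker genes given beside results. Relations within groups used exact permutation of pairings, 2-sided, or 100000 resamples above 9 samples, adjusted over 20 relations. Taking the larger cluster of samples was decided after the data were seen. It was used where a gap wider than 0.3 of the range split off at least 2 samples of a group. Alternatives were pseudocounts of 1 and 64, other scalings and filters, a replicate block, weights for arrays, a variance trend, a covariate for the 3'/5' ratio and leaving out samples.

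In data simulated for the HSALR against wild-type comparison with 22519 probe sets, limma found 33 of 50 changes at a fold of 1.5, and 47, 48 and 50 of 50 at folds of 2, 3 and 4. It also called 11 unchanged probe sets. The simulated noise was drawn independently for each probe set and array, so shifts shared by the probe sets of an array were not in it. These rates may therefore not hold for the real arrays. Plots were made in Python 3.11.15 with matplotlib 3.10.9.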

Additional observations from a re-analysis of the deposited data

Results flagged for a closer look

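In wild-type replicate 1 the Pln probe set 1460332_at had a log2 value of 7.26, apart from the 6.33 to 6.71 of the other 8 wild-type samples. The gap took up 0.586 of the group's range, above Dixon's 95% critical value of 0.493 for 9 samples. This was 1 of 20 groups examined, and chance alone sets apart about 1 in 20. For the Pln probe set 1450952_at the same sample had an intensity of 137, inside the 87.2 to 163 of its group.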

How the results depend on the processing

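The log2 differences of the 10 tested member probe sets and the 5 differences within samples moved by less than 1 SD in each alternative run. Sln 1420884_at ranged from 2.68 to 3.37 over the settings other than leaving out 1 sample and Mrln from -0.78 to -0.63. With the replicate block they were 2.98 and -0.66. The number of called member probe sets was 2 under each setting except quantile normalization (3, with Atp2a1 added) and the 3'/5' covariate (3, with Atp2a2 1427250_at added at 0.74). The count over all probe sets, 1140, was 3342 after quantile normalization, 2345 with arrays centred on their median, 2878 with array weights, 2169 with the 3'/5' covariate, 2468 without HSALR replicates 9 and 10 after quantile normalization and 716 with the replicate block. Leaving out 1 sample gave 858 to 2067, the highest without HSALR replicate 5. The 9 called calcium genes became 18 after quantile normalization, 16 without replicates 9 and 10 after quantile normalization, and 4 with no filter, with the replicate block or without replicates 9 and 10. They were 4 to 9 when 1 sample was left out. The 2 relations past the threshold were 1 with the scaling as deposited and 0 to 2 when 1 sample was left out. The cause of these shifts was not tested. Equal replicate numbers showed no clear pairing of the samples: 2 of 9 pairs had correlated deviations over 0.1 (range -0.235 to 0.124), and 1 sample correlated best with its own number. Whether samples of equal number were handled together is not in the labels, and weak correlations cannot decide it. The dim probe sets Sln 1420883_at, Pln 1423359_at and Atp2a2 1443551_at lie too close to background to order the groups.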
